A study of Mus musculus with 8 samples.

Results

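Krt7, Krt8, Krt18, Krt19 and Krt20 are the keratins of simple epithelium, the single-layered lining of stomach, intestine, ducts and other glandular organs. They were taken by symbol from the deposited tables of gastric epithelial cells, where all 5 genes had a row of their own, out of 38892 rows and 54 keratin rows in all. Keratins are intermediate filament proteins that assemble only as pairs of a type I and a type II chain, so a cell needs both kinds. Krt7 and Krt8 encode type II chains, and Krt18, Krt19 and Krt20 encode type I chains. Krt8 and Krt18 form the basic filament of most simple epithelia, Krt19 is a type I chain of many ductal and glandular cells, and Krt20 marks differentiated surface cells of stomach and intestine.

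The series set 4 libraries of mice that received a diet high in fat (HFD 22, 23, 26 and 27) against 4 from control mice (titled ND, here control 15-17-18, 16, 19 and 20), all of strain C57BL/6 and with no transgene or drug named. The RNA came from sorted gastric epithelial cells. The labels give neither age nor sex, diet make-up, time on diet or sorting gate, and do not say whether a library came from 1 mouse. Total RNA freed of ribosomal RNA was sequenced, so intron-containing and non-polyadenylated RNA could be counted too.

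Markers of gastric epithelium were high in all libraries. Gkn1, a gastrokine of pit cells, averaged 18.04 ± 0.40 in HFD and 18.16 ± 0.56 in control libraries on a log2 scale (SD, n = 4 each). The summed level of 12 epithelial junction genes, among them Epcam and Cdh1, ran from 16.13 to 16.19 in HFD and from 16.15 to 16.39 in control libraries, and none of these genes was at 0 in any library. The 10 leukocyte markers summed to between 7.32 and 8.21 in HFD and between 6.89 and 8.69 in control libraries. Up to 1 of them was at 0 in an HFD library and up to 4 in a control library. Other cell types had higher sums. The 7 fibroblast markers summed to 11.01 to 12.30 in HFD and 10.39 to 12.70 in control libraries. The 7 endothelial markers summed to 10.34 to 10.85 in HFD and 9.33 to 11.12 in control libraries. Smooth muscle markers are given further below. Estimated depth was 31.4 to 46.0 M reads in HFD and 16.4 to 63.1 M reads in control libraries, control 19 being the shallowest in total. Control 15-17-18, at an estimated 53.3 M reads, had the most rows at 0, 16468 against 10040 to 13998 elsewhere. Its estimated reads were below those of control 19 for Krt7 (108 against 246) and Krt18 (4415 against 5666), and above them for Krt8, Krt19 and Krt20. HFD 23 and control 15-17-18 stood apart: 1110 rows, or 4.05% of those tested, were at least 2 log2 units above every other library in HFD 23, and 842 rows, or 3.08%, in control 15-17-18, against 0 to 46 rows in the other libraries. Levels and differences are given as log2(value + 1) after median-ratio scaling, which divides each library by its median ratio to the geometric row means, except where called deposited. The scaling moved the median difference over all rows to 0.12, against 0.90 as deposited. Control 15-17-18 had a scale factor of 0.205, against 1.23 to 1.41 in HFD and 0.789 to 1.59 in the other control libraries, and without it the deposited median was 0.32.

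Krt7, Krt8 and Krt18 lie on mouse chromosome 15 (RefSeq coordinates, build GRCm38.p6, the assembly of mm10). Krt7 spans 101412403 to 101427806, Krt8 spans 101996711 to 102004342 and Krt18 spans 102028216 to 102032026, the last a type I gene at the end of the type II cluster, 23873 bases from Krt8. The other type I genes lie on chromosome 11, Krt20 at 99428385 to 99438153 and Krt19 at 100140810 to 100145926. In GENCODE M21 the coding transcript taken for each gene has 9 exons in Krt7, 9 in Krt8, 7 in Krt18, 6 in Krt19 and 8 in Krt20. No other gene of the RefSeq table overlapped any of them. The pseudogene Krt8-ps on chromosome 7, was listed at 0 in all 8 libraries.

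The 250 bases before the RefSeq start (GRCm38.p6) are shown for the 4 genes with a promoter sequence at hand. They set the filament pair Krt8 and Krt18, with SDs within groups of 0.31 and 0.15 log2 units, beside Krt7 and Krt20, with 1.10 and 1.0. The Krt7 spread came largely from HFD 23, at 12.29 against 9.28 to 9.41 in the other HFD libraries. That of Krt20 came largely from the controls, at 6.59 to 9.85. Any tie between sequence and spread was not tested. Each is written on the strand of its gene, from chr15:102004343-102004592 for Krt8 (minus), chr15:102027966-102028215 for Krt18 (plus), chr15:101412153-101412402 for Krt7 (plus) and chr11:99438154-99438403 for Krt20 (minus). Capitals mark motifs found on either strand, none of which overlap in these windows. The motif searched for the box bound by the basal transcription machinery was TATAAA. The motif for the GC-rich box of Sp1-type factors was GGGCGG. The motif for the dimer of Fos and Jun proteins was TGACTCA, and that for the box of Kruppel-like factors was CCACCC.
Krt8: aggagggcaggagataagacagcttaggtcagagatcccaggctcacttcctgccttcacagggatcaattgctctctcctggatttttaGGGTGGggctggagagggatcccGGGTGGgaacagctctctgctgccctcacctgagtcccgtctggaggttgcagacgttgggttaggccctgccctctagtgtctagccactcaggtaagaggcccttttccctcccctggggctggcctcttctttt
Krt18: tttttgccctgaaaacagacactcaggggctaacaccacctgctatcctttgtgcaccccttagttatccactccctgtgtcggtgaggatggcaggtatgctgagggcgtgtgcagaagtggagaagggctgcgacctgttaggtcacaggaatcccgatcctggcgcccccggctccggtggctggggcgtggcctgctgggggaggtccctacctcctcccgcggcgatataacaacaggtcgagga
Krt7: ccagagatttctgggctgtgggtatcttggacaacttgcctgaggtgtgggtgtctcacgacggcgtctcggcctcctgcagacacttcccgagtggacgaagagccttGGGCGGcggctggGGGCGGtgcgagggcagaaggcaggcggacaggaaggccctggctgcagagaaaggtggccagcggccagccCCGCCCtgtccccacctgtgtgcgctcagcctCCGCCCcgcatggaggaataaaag
Krt20: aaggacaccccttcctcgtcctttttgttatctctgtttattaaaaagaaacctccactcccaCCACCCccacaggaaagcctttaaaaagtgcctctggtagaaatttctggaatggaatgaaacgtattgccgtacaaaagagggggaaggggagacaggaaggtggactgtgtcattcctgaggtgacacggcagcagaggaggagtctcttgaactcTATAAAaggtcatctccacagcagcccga
The GC-rich box occurred 4 times before Krt7 and in none of the other 3 windows, against 32.7% of 32851 promoter windows of the same length with at least 1. TATAAA occurred once before Krt20, 29 bases from the start, against 12.4% of all windows. CCACCC occurred 2 times before Krt8, on the other strand, and once before Krt20, against 28.1% of windows, and TGACTCA in none of the 4, against 4.46% of windows. A match is a run of letters, and no binding was measured.

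The filament pair and Krt19 were among the most abundant transcripts in both diets. Krt19 ranked between 50 and 55 of all rows in HFD and between 50 and 78 in control libraries. Krt8 ranked between 56 and 77 in HFD and between 55 and 86 in control libraries, and Krt18 between 117 and 128 in HFD and between 118 and 154 in control libraries. Krt7 and Krt20 were far lower, with ranks no better than 525 and 4134 in any library. Divided by coding length, the order of levels was Krt19, Krt8, Krt18, Krt7 and Krt20. Krt19 exceeded Krt8 in 8 of 8 libraries, by 1.38 to 1.84 times per kilobase of coding sequence, and Krt8 exceeded Krt18 in 8 of 8, by 1.33 to 2.25 times. The gap between Krt7 and Krt20, at 1.27 ± 1.26 log2 units (SD over 8 libraries), was about as large as its spread, and Krt20 was the higher of the pair in control 16. That gap depends on the length used. The coding lengths are alike, at 1371 and 1293 bases, but the Krt7 transcript taken has 4094 bases and that of Krt20 has 1927. Per transcript length the gap would be smaller. Per kilobase of coding sequence it was already small in HFD 27 (8.95 for Krt7 against 8.47 for Krt20) and control 15-17-18 (8.05 against 7.71). The order of these genes was thus taken for coding length only.

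**Figure D1:**
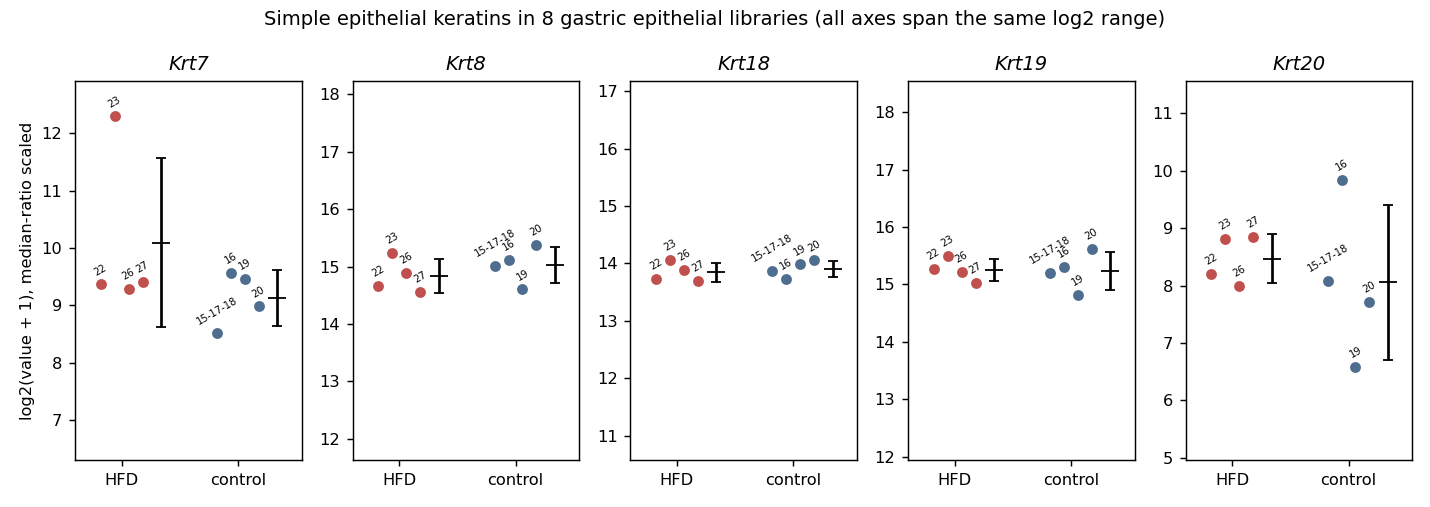
Level of each simple epithelial keratin in the 4 HFD and 4 control libraries, as log2(value + 1) after median-ratio scaling; points are libraries with their numbers, bars are mean ± SD. Krt18 kept within 13.70 to 14.06, while Krt7 reached 12.29 in HFD 23 alone and Krt20 ran from 6.59 to 9.85 among controls.

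Krt8, the main type II chain of simple epithelium, stood at 14.66, 15.24, 14.89 and 14.56 in HFD 22, 23, 26 and 27, and at 15.02, 15.11, 14.60 and 15.38 in control 15-17-18, 16, 19 and 20. The groups overlapped, with HFD 23 and control 20 highest and HFD 27 and control 19 lowest. The difference was -0.19 ± 0.19 (SE; limma adjusted p = 0.72), with a 95% interval from -0.62 to 0.24, that is, 0.651 to 1.18 times the control level. As deposited, Krt8 differed by 0.67 ± 0.76 (SE; limma adjusted p = 0.56), the opposite sign.

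Krt18, the type I partner of Krt8, stood at 13.73, 14.06, 13.89 and 13.70 in HFD 22, 23, 26 and 27, and at 13.87, 13.73, 13.98 and 14.05 in control 15-17-18, 16, 19 and 20. All 8 libraries lay within 0.36 log2 units. The difference was -0.06 ± 0.12 (SE; limma adjusted p = 0.86), with a 95% interval from -0.32 to 0.20, or 0.800 to 1.15 times the control level. Its spread within groups, an SD of 0.15, was smaller than that of 77.4% of the 190 rows within 1 log2 unit of its mean. As deposited, Krt18 differed by 0.79 ± 0.75 (SE; limma adjusted p = 0.52).

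Krt19, a type I keratin with almost no tail domain, stood at 15.26, 15.50, 15.22 and 15.02 in HFD 22, 23, 26 and 27, and at 15.20, 15.30, 14.81 and 15.61 in control 15-17-18, 16, 19 and 20. Control libraries held both the highest and the lowest value. The difference was 0.02 ± 0.17 (SE; limma adjusted p = 0.97), with a 95% interval from -0.37 to 0.40, or 0.776 to 1.32 times the control level. As deposited, Krt19 differed by 0.87 ± 0.76 (SE; limma adjusted p = 0.51). Of the members' deposited differences, those of Krt8, Krt18 and Krt19 lay below the 0.90 of the median row and those of Krt7 and Krt20 above it.

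Krt7, a type II keratin of ducts and other simple epithelia that pairs with Krt18 or Krt19, was high in 1 library. It stood at 9.36, 12.29, 9.28 and 9.41 in HFD 22, 23, 26 and 27, and at 8.51, 9.56, 9.46 and 8.98 in control 15-17-18, 16, 19 and 20. HFD 23 lay far above the other 7 libraries, and the other 3 HFD libraries lay within the range of the controls. The difference was 0.96 ± 0.69 (SE; limma adjusted p = 0.64), with a 95% interval from -0.64 to 2.56, and it was 0.23 ± 0.24 (SE; limma adjusted p = 0.81) without HFD 23. In estimated reads Krt7 had 6032 in HFD 23, 780 to 1078 in the other HFD libraries and 108 to 1055 in controls.

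As deposited, Krt7 stood at 9.66, 12.79, 9.76 and 9.82 in HFD 22, 23, 26 and 27, and at 6.22, 10.23, 9.12 and 9.20 in control 15-17-18, 16, 19 and 20. The deposited difference was 1.81 ± 0.74 (SE; limma adjusted p = 0.41), with control 15-17-18 lowest. Krt82, a hair type II keratin of the same chromosome, was the other keratin at least 2 log2 units above all other libraries in HFD 23, at 9.11, against 1.73 to 2.40 in the other HFD libraries and 0 to 3.26 in controls. Krt80 and Krt87, the nearest keratin rows to either side of Krt7, did not stand apart there. Krt80 was at 7.86 in HFD 23, 7.19 to 7.64 in the other HFD libraries and 7.90 to 8.56 in controls, and Krt87 was at 3.80 in HFD 23, 2.45 to 3.73 in the other HFD libraries and 0 to 3.46 in controls. Mesothelium is a cell type that also makes Krt7. Its 6 markers summed to 9.73 in HFD 23, 9.70 to 10.03 in the other HFD libraries and 9.24 to 9.74 in controls. Most of each sum was Gpm6a, at 9.56 in HFD 23, 9.61 to 9.95 in the other HFD libraries and 9.12 to 9.63 in controls. The sum thus says little of the other markers. Upk1b was at 0 in HFD 23, and Upk1b and Upk3b were at 0 in control 15-17-18 and 19. Upk3b was at 2.58 in HFD 23, 2.83 to 3.26 in the other HFD libraries and 0 to 4.03 in controls. The mean log2 level of the 6 markers was 4.35 in HFD 23, 4.22 to 4.45 in the other HFD libraries and 3.49 to 4.64 in controls. The part of mesothelium in the Krt7 value was not tested. The share of rows standing apart in HFD 23 is given above, and its part in the Krt7 value was not tested. The value column of HFD 23 is also the only one headed by what reads as a sequencing run name, and since no run is given for the other libraries, run and library cannot be told apart.

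Krt20, the type I keratin of mature surface cells, varied most among the controls. It stood at 8.21, 8.81, 8.0 and 8.85 in HFD 22, 23, 26 and 27, and at 8.08, 9.85, 6.59 and 7.71 in control 15-17-18, 16, 19 and 20. The HFD libraries lay between the highest and the lowest control. The difference was 0.41 ± 0.61 (SE; limma adjusted p = 0.82), with a 95% interval from -0.99 to 1.82. Without control 16 it was 1.0 ± 0.38 (SE; limma adjusted p = 0.39), and without control 19 it was -0.08 ± 0.51 (SE; limma adjusted p = 0.95).

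The lowest Krt20 value, in control 19, rested on an estimated 33.4 reads, and that in control 16 on 1283. Pit cells are the mucous surface cells of the stomach. Their 6 markers summed to 18.81, 18.86, 19.57 and 19.09 in HFD 22, 23, 26 and 27, and to 19.64, 19.95, 18.86 and 19.20 in control 15-17-18, 16, 19 and 20, so control 16 was highest and control 19 lowest among controls for both Krt20 and the pit cell sum. The HFD libraries did not follow that order: HFD 26 had the highest pit cell sum of the 4 and the lowest Krt20. Such a sum is weighted to its most abundant genes, here Gkn1, at 18.97 in control 16 and 17.71 in control 19. The mean log2 level of the 6 markers was also highest in control 16 (15.75) and lowest in control 19 (15.09) among controls. Muc5ac, also among the 6, was highest in control 15-17-18, at 18.32, against 17.54 in control 16. Muc5ac, the pit cell mucin, averaged 15.70 ± 0.18 in HFD and 17.31 ± 0.80 in control libraries (SD, n = 4 each), a difference of -1.61 ± 0.35 (SE; limma adjusted p = 0.20), or -0.75 as deposited. Gkn3, a gastrokine, went the other way, at 10.50 ± 0.55 in HFD and 9.17 ± 0.66 in control libraries (SD, n = 4 each), a difference of 1.32 ± 0.36 (SE; limma adjusted p = 0.27), or 2.18 as deposited. Of the 6 genes listed here as pit cell markers, Gkn3 included, 0 were called and 2 differences were positive, with a median of -0.08. Whether the Gkn3 RNA came from pit cells was not tested. The part of pit cell content in the Krt20 values was not tested. In these bulk libraries fewer cells of a type and less RNA per cell cannot be told apart.

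**Figure D2:**
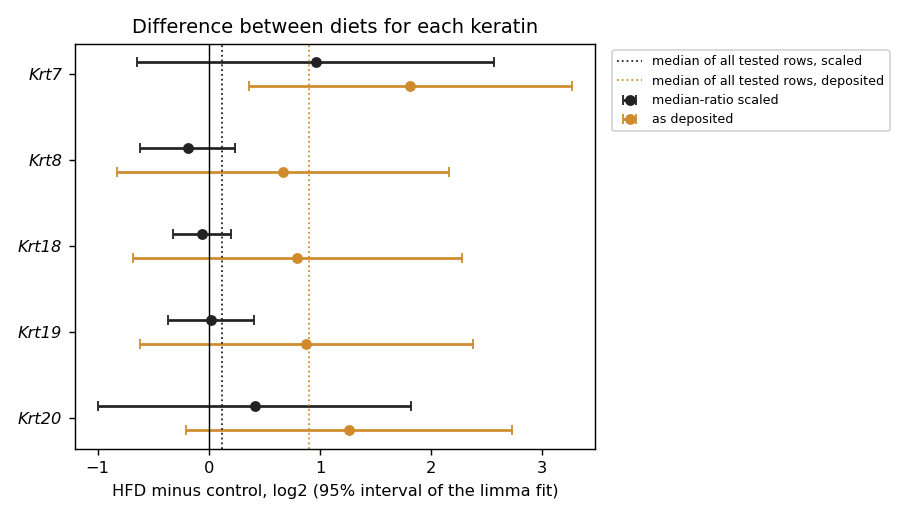
HFD minus control difference of each keratin on the log2 scale, with the 95% interval of the limma fit, after median-ratio scaling (black) and as deposited (orange); dotted lines mark the median of all 27380 tested rows on each scale. Scaled differences ran from -0.19 for Krt8 to 0.96 for Krt7, and deposited ones from 0.67 to 1.81.

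None of the 5 keratins passed the test on either scale. Over all 27380 tested rows limma called 3, or 0.011%, after median-ratio scaling, of which 1 was higher (0.00365%) and 2 were lower (0.0073%) in HFD. As deposited it called 16, or 0.0584%, of which 13 were higher (0.0475%) and 3 were lower (0.011%). At an unadjusted p under 0.05 there were 2890 rows after scaling and 2630 as deposited. Without control 15-17-18 limma called 0 rows as deposited, Krt4, Krt13 and Des included, with 1759 at an unadjusted p under 0.05. The deposited differences were then 0.99 for Krt7, 0.045 for Krt8, 0.16 for Krt18, 0.25 for Krt19 and 0.66 for Krt20. After scaling 0 of the 5 keratins had an unadjusted p under 0.05, and as deposited Krt7 had one of 0.0145. The groups overlapped for all 5 on both scales. Over all rows they did not overlap in 7.86% after scaling (HFD above in 4.77%, below in 3.09%) and in 7.93% as deposited (HFD above in 7.83%, below in 0.106%). The median difference of the 5 was 0.02 after scaling and 0.87 as deposited, beside 0.12 and 0.90 over all rows tested.

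Ratios within a library do not depend on how libraries are scaled to each other, and Krt8 was used as the common denominator. Krt7 is a type II chain like Krt8, so its ratio does not compare partners. The log2 ratio of Krt19 to Krt8 was 0.60, 0.26, 0.33 and 0.47 in HFD 22, 23, 26 and 27, and 0.18, 0.19, 0.21 and 0.24 in control 15-17-18, 16, 19 and 20. All 4 HFD ratios lay above all 4 control ratios, and the controls lay close together. The ratio averaged 0.41 ± 0.15 in HFD and 0.20 ± 0.03 in control libraries (SD, n = 4 each), a difference of 0.21 (exact two-sided permutation p = 0.0286, the smallest the 70 divisions allow). Adjusted over the 4 ratios computed, the exact permutation p was 0.11, the smallest value that 1 ratio alone can reach in this design, so the adjusted test could not call it. Among all other tested rows, the ratio to Krt8 had HFD wholly above control in 3.43%, wholly below in 0.175% and groups that did not overlap in 3.6%.

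The ratio of Krt18 to Krt8, the 2 chains of the basic filament, was -0.93, -1.18, -1.0 and -0.86 in HFD 22, 23, 26 and 27, and -1.15, -1.38, -0.62 and -1.33 in control 15-17-18, 16, 19 and 20. The groups overlapped, and control 19 had the most Krt18 per Krt8. The difference was 0.13 (exact two-sided permutation p = 0.54). The Krt7 ratio differed by 1.15 (exact two-sided permutation p = 0.20) and the Krt20 ratio by 0.60 (exact two-sided permutation p = 0.37), with adjusted values of 0.40 and 0.50. Without HFD 23 the Krt7 ratio differed by 0.55.

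**Figure D3:**
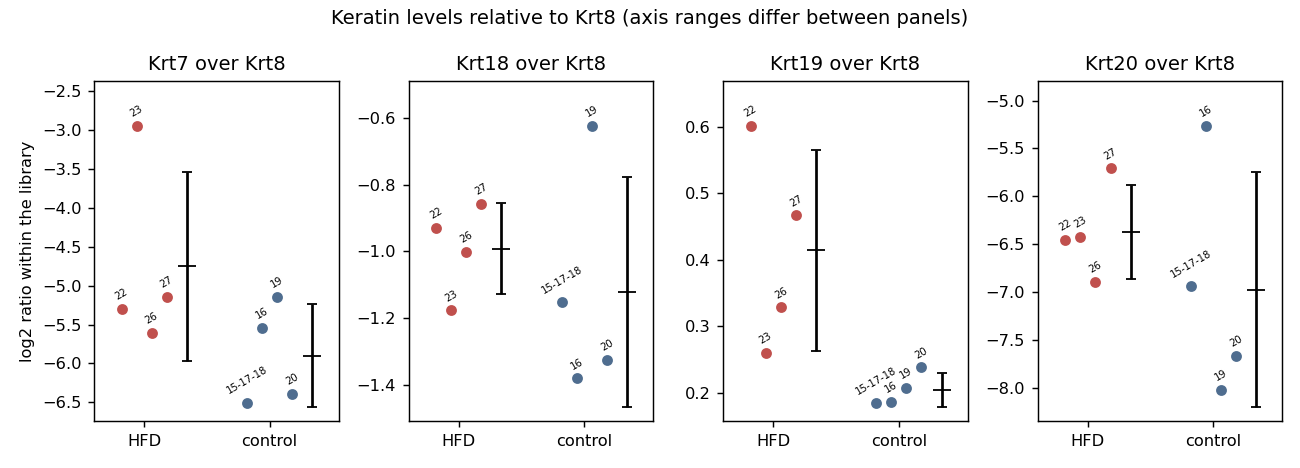
Log2 ratio of Krt7, Krt18, Krt19 and Krt20 to Krt8 within each library; points are libraries with their numbers, bars are mean ± SD of 4 libraries. The Krt19 ratio was 0.26 to 0.60 in HFD and 0.18 to 0.24 in control libraries, and in the other 3 panels the groups overlap.

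The 5 simple epithelial keratins made up nearly all keratin RNA. They took 93.2%, 94.4%, 89.6% and 92.4% of the summed linear value of the 54 keratin rows in HFD 22, 23, 26 and 27, and 96.5%, 96.3%, 92.1% and 94.7% in control 15-17-18, 16, 19 and 20. Krt19 had 42.5% ± 2.56 in HFD and 41.3% ± 2.58 in control libraries (SD, n = 4 each). Krt8 had 31.9% ± 1.60 in HFD and 35.9% ± 2.29 in control libraries, and Krt18 had 16% ± 0.859 in HFD and 16.7% ± 3.12 in control libraries (SD, n = 4 each). Krt7 had 4.41% in HFD 23, 0.660% to 0.874% in the other HFD libraries and 0.406% to 0.917% in controls. Krt20 stayed under 1% in every library.

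Type I RNA exceeded type II RNA in every library. Per kilobase of coding sequence the sum of Krt18, Krt19 and Krt20 was 2.12 ± 0.288 times that of Krt7 and Krt8 in HFD and 1.92 ± 0.122 times in control libraries (SD, n = 4 each). It was lowest in HFD 23, at 1.74, where Krt7 was highest. The highest keratin outside the 5 was Krt23 in 8 of 8 libraries, a type I keratin, at 10.96 ± 0.16 in HFD and 11.03 ± 0.11 in control libraries (SD, n = 4 each; difference -0.07 ± 0.11, SE, limma adjusted p = 0.82), or 0.78 as deposited.

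**Figure D4:**
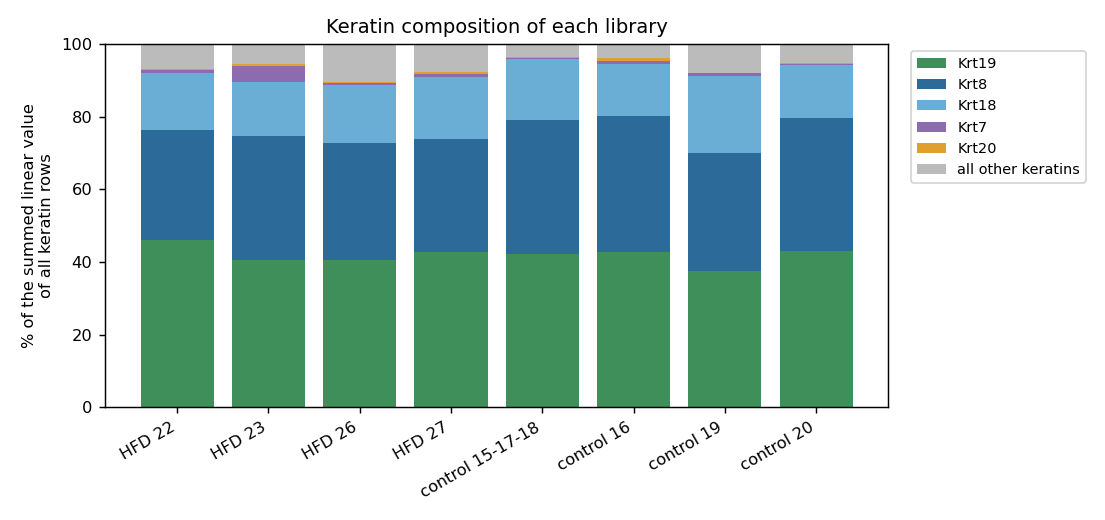
Share of each simple epithelial keratin, and of all other keratins together, in the summed linear deposited value of the 54 keratin rows of each library, in percent and not corrected for length. Krt19, Krt8 and Krt18 fill most of every bar, and Krt7 is visible as 4.41% in HFD 23.

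None of the other keratins was called after median-ratio scaling. Among 19 tested keratins of squamous and stratified epithelium, 0 were called after median-ratio scaling and 14 of 19 differences were positive, with a median of 0.89. As deposited, 2 were called higher, Krt4 and Krt13, and 0 lower (0 called without control 15-17-18), and all 19 differences were positive, with a median of 1.63. Over all 27380 rows 16445 differences were positive after scaling and 24620 as deposited. Krt4, a type II keratin of squamous epithelium, stood at 8.45, 6.67, 9.31 and 7.21 in HFD 22, 23, 26 and 27, and at 3.36, 4.36, 5.45 and 7.73 in control 15-17-18, 16, 19 and 20. Krt5, the basal type II keratin, averaged 10.24 ± 0.63 in HFD and 8.11 ± 2.40 in control libraries (SD, n = 4 each). In neither did the groups separate. Krt80, a widely made type II keratin beside Krt7, averaged 7.54 ± 0.28 in HFD and 8.22 ± 0.28 in control libraries (SD, n = 4 each). Its 4 HFD libraries lay below all controls, a difference of -0.68 ± 0.21 (SE; limma adjusted p = 0.30), but 0.17 as deposited.

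Forestomach is the squamous part of the mouse stomach. Its 13 markers summed to between 11.25 and 12.42 in HFD and between 7.62 and 11.37 in control libraries. Up to 1 was at 0 in an HFD library and up to 3 in a control library. Of these markers 5 are keratins of the squamous list. In HFD 26, where the sum was 12.42, Krt5 was at 11.14, Krt14 at 10.21, Krt13 at 9.79, Krt4 at 9.31 and Krt6a at 7.90. They made up most of that sum, so it is no independent measure to set beside the squamous keratins. The 7 smooth muscle markers summed to between 11.51 and 12.17 in HFD and between 9.01 and 10.92 in controls, so these groups did not overlap. The part of either content in the squamous keratin values was not tested. The summed level of the 5 simple keratins ran from 16.13 to 16.71 in HFD and from 16.11 to 16.75 in control libraries. Of 22 tested hair and sheath keratins 0 were called on either scale. Krt71 and Krt39, the hair and sheath keratins with the smallest p, were low: Krt71 averaged 2.12 ± 0.74 in HFD and 0.49 ± 0.98 in control libraries, and Krt39 averaged 2.79 ± 1.0 in HFD and 1.15 ± 0.86 in control libraries (SD, n = 4 each).

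**Figure D5:**
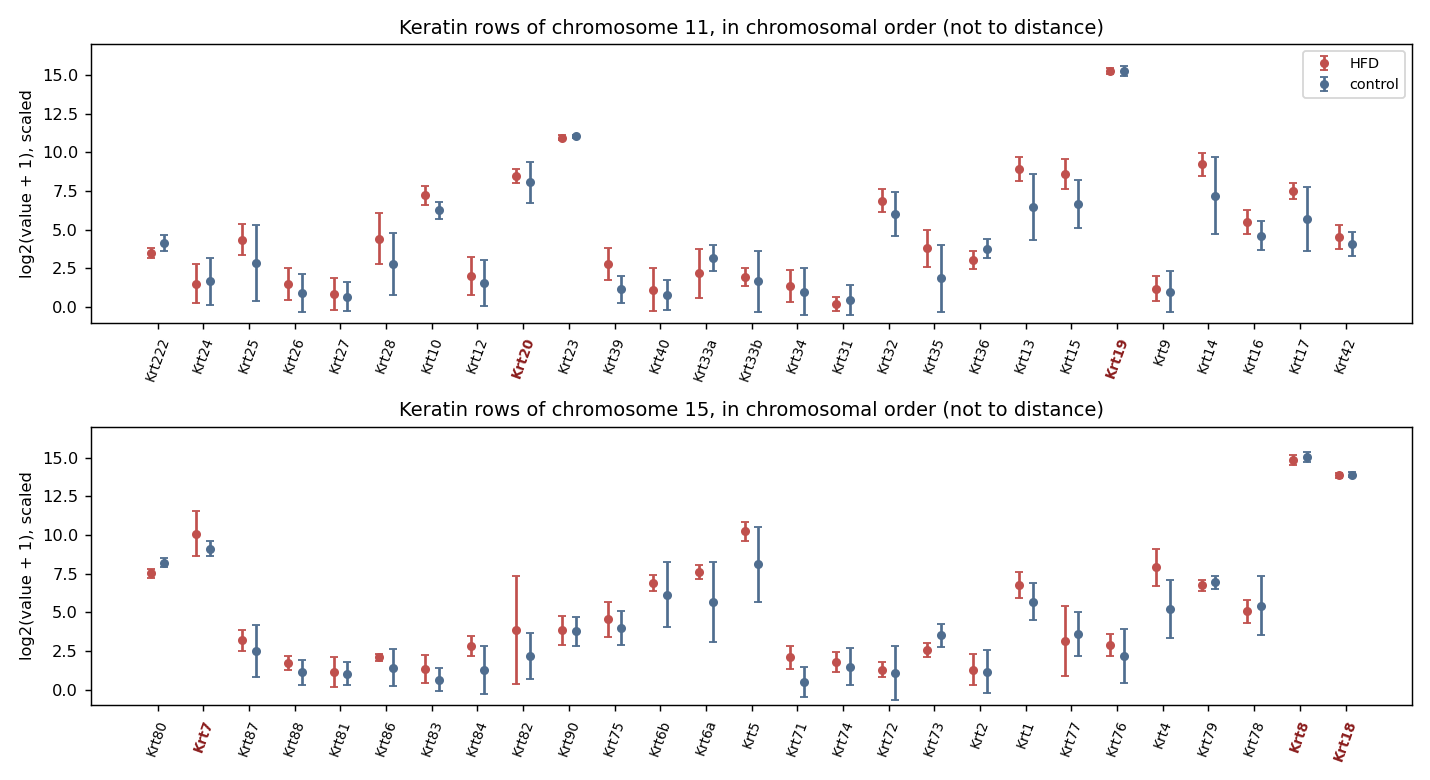
Mean level ± SD (n = 4 each) of the keratin rows on chromosomes 11 and 15 in HFD and control libraries, in chromosomal order and not to distance, as log2(value + 1) after median-ratio scaling. Krt19, Krt8 and Krt18 stand far above the genes beside them, and Krt23 follows at 10.96 in HFD and 11.03 in control libraries; Krt5 is at 10.24 in HFD and 8.11 in control libraries, with a wide spread among controls.

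Keratin filaments are tied to desmosomes and other anchors by linker proteins. Of 17 tested linkers and plaque proteins 0 were called on either scale, 3 differences were positive after scaling and 17 as deposited, with medians of -0.35 and 0.50, beside the counts over all rows given for the squamous keratins. Plec, the gene of the cytolinker plectin, stood at 13.70, 13.84, 13.40 and 13.66 in HFD 22, 23, 26 and 27, and at 14.99, 14.39, 14.11 and 14.39 in control 15-17-18, 16, 19 and 20. All HFD libraries lay below all controls, a difference of -0.82 ± 0.18 (SE; limma adjusted p = 0.20), and 0.04 as deposited. Dst, the gene of the plakin dystonin, differed by -0.46 ± 0.14 (SE; limma adjusted p = 0.31), and by 0.39 as deposited. Its HFD libraries, at most at 12.02, also lay below all controls, at 12.09 or more. After scaling, HFD lay wholly below control in 2 of the 17, Plec and Dst, and wholly above in 0. Over all tested rows these shares were 3.09% and 4.77%. Dsp, the gene of desmoplakin, which anchors keratin to desmosomes, differed by -0.42 ± 0.22 (SE; limma adjusted p = 0.53), and by 0.43 as deposited.

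Of 12 tested epithelial junction genes 0 were called on either scale. After scaling, HFD lay wholly above control in 1 of them and wholly below in 3, beside 4.77% and 3.09% of all tested rows. Epcam, an epithelial surface adhesion molecule, averaged 12.39 ± 0.12 in HFD and 11.71 ± 0.27 in control libraries (SD, n = 4 each), a difference of 0.69 ± 0.14 (SE; limma adjusted p = 0.20), and 1.54 as deposited. Cdh1, the gene of E-cadherin, averaged 14.45 ± 0.13 in HFD and 14.87 ± 0.19 in control libraries (SD, n = 4 each), a difference of -0.42 ± 0.12 (SE; limma adjusted p = 0.28), and 0.43 as deposited. Of 15 tested intermediate filament genes outside the keratins 0 were called after scaling and 1 as deposited, Des, the muscle filament desmin, which is also in the smooth muscle list. Des averaged 8.21 ± 0.27 in HFD and 5.49 ± 1.69 in control libraries (SD, n = 4 each), and rose as deposited by 3.54 (limma adjusted p = 0.0188), but was not called without control 15-17-18. Lmna, the gene of nuclear lamin A, differed by -0.07 ± 0.09 (SE; limma adjusted p = 0.79), and by 0.78 as deposited. Synm, the gene of synemin, averaged 8.92 ± 0.22 in HFD and 8.35 ± 0.16 in control libraries (SD, n = 4 each; difference 0.57 ± 0.15, SE, limma adjusted p = 0.26), and differed by 1.43 as deposited.

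The genes most like each keratin over the 8 libraries were found by Pearson correlation of scaled levels among 15307 named rows with a mean of at least 5, as a description that shares the libraries and their depth. Mgat2, a Golgi glycosylation enzyme, and Hrct1 were nearest to Krt7 (r = 0.997 and 0.993). Hrct1 stood at 11.67 in HFD 23, 4.57 to 5.18 in the other HFD libraries and 2.96 to 5.39 in controls, so that, as for Krt7, HFD 23 lay far above the other 7 libraries. Cant1 and Abca7 were nearest to Krt8 (r = 0.949 and 0.934), 1700037H04Rik and Enpp1 to Krt18 (r = 0.963 and 0.959), Slc44a4 and Comtd1 to Krt19 (r = 0.975 and 0.964), and Zfp946 and Rad17 to Krt20 (r = 0.962 and 0.957). Krt19 ranked 26 among the rows nearest to Krt8, with r = 0.871, and Krt18 ranked 752, with r = 0.568.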

How the data were processed

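The authors deposited 1 table of 38920 rows per library, on what was taken to be a log2 scale: the antilogs of each table sum to 36.9 M, with a spread of 0.0039%. A deposited 0 was read as no signal. The submitters' processing notes name mm10 and bedtools 2.17.0. For aligner, annotation, strand use and normalization the method is not given in the sources used here. The value column of 2 tables (HFD 23 and HFD 27) has another heading than the other 6, that of HFD 23 holding what reads as a run name.

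Row identifiers were looked up in RefSeq's GRCm38.p6 genes (mm10 is that assembly), with 32891 direct matches, and the row of highest total was kept per symbol, leaving 38892. A row entered the test with a value of 1 or more in 4 libraries (27380 rows). It was fitted by limma 3.58.1 (trend, robust, R 4.3.3) on log2(value + 1) after median-ratio scaling over 11107 rows above 30 in all libraries, with group as the only term and Benjamini-Hochberg adjustment at 0.05. Such fold changes understate the change of low genes. The 95% intervals are those of the fit. The 4 ratios to Krt8 were tested by exact permutation. Coding lengths and exons come from GENCODE M21, and lengths do not correct for how the authors counted.

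Depth was estimated by taking the largest common step of the most frequent low values as 1 read. Only 24.3% to 34.9% of values below 2000 steps were whole multiples within 0.01, so reads are estimates and no count test was run. Groups come from the titles. Nothing says libraries are separate mice, and 15-17-18 may be a pool, so p-values measure the spread between libraries. The labels give no batch, the headings a run for HFD 23 alone, and the labels no shared replicate number. Members, lists and scaling were chosen with earlier results of these data known. The 5 keratins are all named, and from each other list the 2 genes with the smallest p and the most abundant one, where a result touches the keratins. Krt13, Krt82, Krt87 and the highest other keratin were chosen after their values were seen. Alternatives were deposited, quantile and junction-gene scaling, other pseudocounts, filters and limma options, and each library left out. The deposited scale without control 15-17-18 was added after seeing the data.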

Additional observations from a re-analysis of the deposited data

Results flagged for a closer look

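Krt7 in HFD 23 was flagged because it lay far from the other HFD libraries, at 12.29 against 9.28 to 9.41 on the scaled log2 scale, a gap that is 0.958 of the group's whole range, above Dixon's 95% critical value of 0.829 for 4 samples. It was the only flag among 18 groups of 4 examined (the levels of the 5 keratins and the 4 ratios to Krt8, in each diet), and chance flags about 1 in 20 such groups.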

How the results depend on the processing

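None of the 5 keratins was called under any alternative run. Their lowest adjusted p was 0.38 (Krt8, limma with array quality weights, -0.38). For the 4 ratios the exact permutation test is too small for 1 ratio alone to pass after adjustment, so their calls say nothing of stability; none changed sign. Some signs turned. As deposited Krt8 was at 0.67 and Krt18 at 0.79, under quantile normalization Krt8 was at 0.0195 and Krt18 at 0.11, and with libraries scaled to the epithelial junction genes Krt18 was at 0.0731. As deposited without control 15-17-18, chosen after seeing the data, Krt8 was at 0.0450 and Krt18 at 0.164, and 0 rows were called (1759 at an unadjusted p under 0.05 by limma). Krt19 was at -0.10 with array quality weights. With each library left out in turn, the differences ran from 0.23 to 1.23 for Krt7, -0.33 to -0.07 for Krt8, -0.13 to -0.01 for Krt18, -0.12 to 0.15 for Krt19 and -0.08 to 1.0 for Krt20. Krt19 was at -0.06 without HFD 23, -0.0194 without control 15-17-18 and -0.12 without control 19. Krt20 was at -0.0803 without control 19. Krt7 was at 0.24 with array quality weights, against 0.96. The ratios to Krt8 ran from 0.55 to 1.44 for Krt7, 0.04 to 0.30 for Krt18, 0.15 to 0.26 for Krt19 and 0.25 to 1.17 for Krt20. The count of 3 rows called in all became 16 as deposited, 21 with array quality weights and 1 without the trend and robust options, and 0 to 4 with each library left out; at 0, without control 15-17-18, 19 or 20, limma gave 2384, 3578 and 3089 rows at an unadjusted p under 0.05. The cause of these changes was not tested. No paired analysis was possible because the groups share no replicate number. Depth limits Krt20 most, with an estimated 33.4 reads in control 19.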
